A study of Mus musculus with 9 samples.

Results

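The receptors described here are the growth factor receptors Erbb2, Erbb3 and Erbb4, the insulin receptor Insr, the insulin-like growth factor (IGF) receptors Igf1r and Igf2r, and the fibroblast growth factor (FGF) receptor Fgfr1. They are the rows of the count table that carry these 7 symbols, out of 15824 genes, and all 7 passed the filter on low counts. RNA depleted of ribosomal RNA was sequenced from isolated cardiomyocytes of CD1 mice, written CD-1 (ICR) in the protocols, at postnatal day 1 (P1), day 14 (P14) and day 56 (P56), with 3 libraries per age. The labels name no mutant allele, transgene or treatment for any group. Each sample pooled 12 hearts at P1 and 6 to 7 hearts at P14 and P56, so a library is an average over animals. The shared protocol text also speaks of hearts taken 3 days after surgery, and whether that applied to these libraries is not stated. It describes both whole myocytes and sorted nuclei that carry Pcm1, and the labels do not settle which material each library holds.

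ERBB receptors pass on signals of the neuregulin and epidermal growth factor families. ERBB2 binds no known ligand and acts as a partner, ERBB3 has a kinase of little activity, and ERBB4 binds neuregulins and has an active kinase. In the mouse heart, neuregulin from endothelial cells acts on ERBB2 and ERBB4 of cardiomyocytes and is needed for the formation of trabeculae. INSR and IGF1R are related receptors that start the PI3K and RAS cascades, whereas IGF2R, also known as the cation-independent mannose 6-phosphate receptor, carries no kinase and clears IGF2 from the cell surface. FGFR1 is a receptor kinase for FGF ligands.

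Libraries held 36619799 to 58538025 counts. The 8 cardiomyocyte markers listed were all measured, and their summed level lay between 50648 and 60605 CPM (counts scaled to the library size) in P1 libraries, 59346 and 91149 in P14 libraries, and 54586 and 78157 in P56 libraries. Here and below, rose and fell are used of changes with an adjusted p below 0.05 (quasi-likelihood test of edgeR). Markers of other cell types were also present. The marker score is the mean log2 CPM of 53 measured markers of fibroblasts, endothelial cells, leukocytes, epicardium, smooth muscle, pericytes and Schwann cells. It ranged from 1.45 to 1.96 in P1 libraries, from 2.38 to 3.58 in P14 libraries and from 0.67 to 1.68 in P56 libraries. The lowest P14 score therefore stood above the highest score of the other ages. Age and score are thus partly confounded. A call lost with the score as a term can go with a larger SE and not a smaller change. All 13 endothelial markers rose at P14 and all 13 fell at P56 against P14, with a summed level of 81.6 to 115 CPM in P1, 240 to 618 CPM in P14 and 42.1 to 106 CPM in P56 libraries. Of 12 fibroblast markers, 5 rose and 1 fell at P14, and 10 fell at P56 against P14. Their summed level was 202 to 365 CPM in P1, 233 to 850 CPM in P14 and 71.2 to 152 CPM in P56 libraries. Leukocyte markers summed to 11.4 to 13.9 CPM in P1, 19.6 to 32.2 in P14 and 17.0 to 23.6 CPM in P56 libraries, and 8 of 10 measured rose at P14. Smooth muscle and pericyte markers summed to 168 to 196 CPM in P1, 197 to 296 in P14 and 51.9 to 85.2 CPM in P56 libraries. Epicardial markers summed to 40.0 to 43.9 CPM in P1, 18.9 to 37.5 in P14 and 6.26 to 13.9 CPM in P56 libraries. The sum was lower at P14 than at P1, but of 6 measured epicardial markers 4 rose and 1 fell at P14. At P56 against P14, 5 of them fell. Of 10 Schwann cell markers, cells in which Erbb3 is a known marker, 4 were measured and summed to 12.6 to 14.6 CPM in P1, 10.3 to 15.9 in P14 and 9.05 to 11.6 CPM in P56 libraries. In bulk libraries, fewer cells of a type and less RNA per cell cannot be told apart.

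Transcripts of Erbb2, Erbb4, Igf1r and Igf2r were lower at P14 and at P56 than at P1. Erbb3 was higher at both later ages, Fgfr1 was highest at P14, and Insr changed little. Between P14 and P1, 2 receptors rose and 4 fell by the same test, where 55.9% of all genes were called, 28.4% higher and 27.5% lower. Between P56 and P14, 1 rose and 4 fell, where 56.0% of all genes were called, 27.5% higher and 28.5% lower. Between P56 and P1, 2 rose and 4 fell, where 62.6% of all genes were called, 30.9% higher and 31.7% lower. Of receptors whose libraries did not overlap, 2 were higher and 4 lower at P14 than at P1 (31.0% and 32.9% of all genes), 1 was higher and 4 lower at P56 than at P14 (30.2% and 29.3%), and 2 were higher and 5 lower at P56 than at P1 (35.0% and 37.1%). Whether the receptors differ from the background in these shares was not tested. For the difference between the steps, 2 were called higher and 3 lower, where 24.1% of all genes were higher and 26.0% lower. The median log2 change of the 7 receptors was -0.66 for P14 against P1, -0.69 for P56 against P14 and -0.66 for P56 against P1, beside medians of 0.00, -0.02 and -0.03 over all genes. Among the ages as a whole, 6 of the 7 differed by edgeR's F test, where 78.0% of all genes did. Correcting counts for GC content moved the median of all genes for P56 against P14 to 0.14. It made 63.0% of called genes higher at P56 than at P14, beside 49.2% without it.

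**Figure D1:**
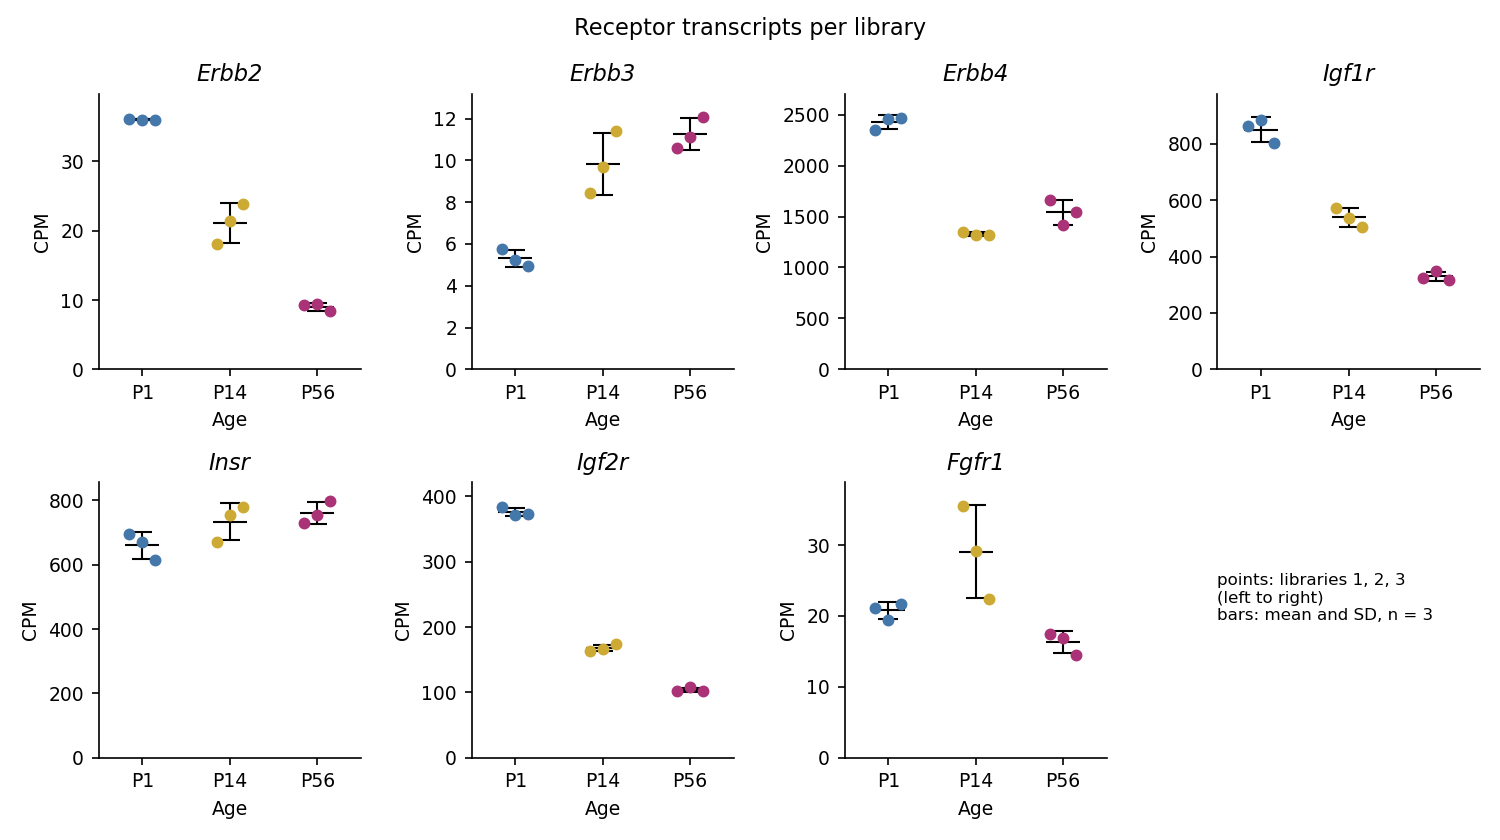
Level of each receptor in CPM (vertical axes, starting at 0) at P1, P14 and P56, with 1 point per library and bars for the mean and SD of 3 libraries. Erbb2, Igf1r and Igf2r step down at each age without overlap, Erbb3 is lowest at P1, Fgfr1 is highest at P14 and Insr overlaps between neighbouring ages.

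The promoters of Erbb2, Erbb4, Igf1r and Igf2r are shown because only these receptors had an entry in the RefSeq table. All 4 were also lower at both later ages, and a link of promoter sequence to that direction was not tested. Each window runs 250 bases before to 50 bases after the RefSeq transcription start on GRCm38.p6, 5′ to 3′ on the strand of the gene. The windows are chr11:98412234-98412533 on the plus strand for Erbb2, chr1:69108010-69108309 on the minus strand for Erbb4, chr7:67952007-67952306 on the plus strand for Igf1r and chr17:12769657-12769956 on the minus strand for Igf2r. Capitals mark matches to the motifs searched on both strands, which were the GC box GGGCGG, the E-box CACGTG, the CCAAT box CCAAT, the TATA box TATAAA and the nuclear receptor site AGGTCA.
Erbb2: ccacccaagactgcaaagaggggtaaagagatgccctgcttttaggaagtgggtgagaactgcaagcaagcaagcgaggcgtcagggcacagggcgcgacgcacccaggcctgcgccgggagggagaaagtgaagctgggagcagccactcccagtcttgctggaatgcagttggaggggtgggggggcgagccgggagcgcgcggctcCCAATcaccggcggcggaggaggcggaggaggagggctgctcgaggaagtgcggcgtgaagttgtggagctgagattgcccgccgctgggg
Erbb4: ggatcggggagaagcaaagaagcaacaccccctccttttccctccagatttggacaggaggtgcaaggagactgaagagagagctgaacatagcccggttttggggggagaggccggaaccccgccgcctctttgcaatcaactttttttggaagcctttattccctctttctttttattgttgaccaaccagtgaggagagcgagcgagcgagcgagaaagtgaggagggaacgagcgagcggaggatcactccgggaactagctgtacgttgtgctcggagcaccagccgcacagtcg
Igf1r: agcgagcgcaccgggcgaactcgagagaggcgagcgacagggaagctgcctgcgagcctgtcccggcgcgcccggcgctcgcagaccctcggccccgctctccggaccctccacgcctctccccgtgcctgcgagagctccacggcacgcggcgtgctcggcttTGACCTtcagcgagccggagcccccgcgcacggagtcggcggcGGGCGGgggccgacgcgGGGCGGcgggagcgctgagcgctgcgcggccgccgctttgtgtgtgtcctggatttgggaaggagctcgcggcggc
Igf2r: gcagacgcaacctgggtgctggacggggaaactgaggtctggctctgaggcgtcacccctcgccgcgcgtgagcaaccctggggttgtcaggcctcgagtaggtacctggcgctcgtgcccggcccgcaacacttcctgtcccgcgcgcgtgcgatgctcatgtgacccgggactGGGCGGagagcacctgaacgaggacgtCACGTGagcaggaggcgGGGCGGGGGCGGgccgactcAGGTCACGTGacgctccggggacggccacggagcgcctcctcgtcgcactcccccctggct
The Erbb2 window held 1 CCAAT box and none of the other motifs, and the Erbb4 window held no match. The Igf1r window held 2 GC boxes and 1 nuclear receptor site on the opposite strand. The Igf2r window held 3 GC boxes, 2 E-boxes and 1 nuclear receptor site that overlaps an E-box. Of 32851 RefSeq windows of 300 bases, 35.7% held a GC box, 7.15% an E-box, 37.4% a CCAAT box, 13.6% a TATA box and 16.3% a nuclear receptor site. GC content was 66.0% for Erbb2, 55.3% for Erbb4, 76.0% for Igf1r and 70.7% for Igf2r, against a median of 52.7% over all windows. The RefSeq start of Igf1r lies 570 bases before the start in the gene annotation used below. The RefSeq table matched 4 of the 7 receptors, and Erbb3, Insr and Fgfr1 were without an entry.

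Erbb4, the neuregulin receptor, had the most counts of the 7 receptors in every library. It lies at chr1:68032186-69108059 on the minus strand of GRCm38 and is annotated with 1075874 bases of gene and 12355 bases of exon. It stood at 2350, 2461 and 2472 CPM in the P1 libraries, 1349, 1319 and 1315 CPM in the P14 libraries and 1658, 1417 and 1548 CPM in the P56 libraries. Every P14 library was below every P56 library, and every P56 library was below every P1 library. Erbb4 fell at P14 by 0.87 ± 0.07 on the log2 scale (SE, edgeR adjusted p = 7.35e-06) and was lower at P56 than at P1, with a log2 change of -0.66 ± 0.07 (edgeR adjusted p = 2.26e-05). Both held in all 15 alternatives tried. From P14 to P56 it rose by 0.21 ± 0.07 (edgeR adjusted p = 0.0251). A fall followed by a rise was found in 8.91% of all genes. That last call was lost without P14 replicate 2 or 3 or without P56 replicate 1 or 3, with edgeR adjusted p from 0.0529 to 0.0976. It was also lost with the marker score as a term (0.32 ± 0.13, edgeR adjusted p = 0.0808), where both the change and its SE were larger. With GC correction it was lost as well (0.08, edgeR adjusted p = 0.494). The change from P14 to P56 minus that from P1 to P14 was 1.09 ± 0.12 (edgeR adjusted p = 0.000129), where 50.0% of all genes were called in either direction. Both Erbb4 and the marker score had their P14 values away from the other ages, in opposite directions. Within P14 they ran in the same order, with 1349, 1319 and 1315 CPM at scores of 3.58, 3.08 and 2.38. Within P1 and within P56 the orders differed. The part of other cells was not tested beyond the score.

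Erbb2, the partner of the other ERBB receptors, fell at each step. It lies at chr11:98412470-98437716 on the plus strand and has 26 annotated exon blocks. Its level was 36.2, 36.0 and 36.0 CPM at P1, 18.1, 21.3 and 23.9 CPM at P14 and 9.26, 9.39 and 8.35 CPM at P56. No library of one age reached the range of another. The log2 change was -0.77 ± 0.10 for P14 against P1 (SE, edgeR adjusted p = 0.000145) and -1.23 ± 0.10 for P56 against P14 (edgeR adjusted p = 1.37e-05). Over the whole span P56 was 4.01-fold lower than P1 (95% interval of the log2 change -2.26 to -1.75, edgeR adjusted p = 1.66e-07). The calls for the age pairs held in all 15 alternatives, with -0.74 for P56 against P14 under GC correction. The later change minus the earlier was -0.46 ± 0.17 on the log2 scale (edgeR adjusted p = 0.0498). That difference was lost without each library in turn except P14 replicate 1 (edgeR adjusted p 0.0543 to 0.231), with -0.26 without P14 replicate 3. It was also lost with the marker score as a term (-0.87 ± 0.32, edgeR adjusted p = 0.0558), where both the difference and its SE were larger. It changed sign with GC correction (0.36). The gene Mien1 overlaps the last 9 bases of Erbb2 on the opposite strand, so reads there cannot be assigned without strand. Mien1 itself had at most 51 counts in the P1 libraries.

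Erbb3, the ERBB receptor of little kinase activity, moved the other way. It lies at chr10:128567523-128589652 on the minus strand and had the fewest counts of the 7 receptors at P1. The P1 libraries held 5.75, 5.25 and 4.95 CPM, the P14 libraries 8.43, 9.68 and 11.4 CPM and the P56 libraries 10.6, 11.1 and 12.1 CPM. All P14 and P56 libraries were above all P1 libraries, while P14 and P56 overlapped. Erbb3 rose by 0.89 ± 0.12 log2 at P14 against P1 (SE, edgeR adjusted p = 0.000251) and was 2.12-fold higher at P56 than at P1 (log2 1.08 ± 0.12, edgeR adjusted p = 3.63e-05). For P56 against P14 the change was 0.20 ± 0.12 (edgeR adjusted p = 0.197), with a 95% interval of -0.10 to 0.50. Without P14 replicate 3 that change passed the threshold (0.32, edgeR adjusted p = 0.0449), and it also did so with GC correction (0.41, edgeR adjusted p = 0.0273). The later change minus the earlier was -0.69 ± 0.21 (edgeR adjusted p = 0.0217), a call lost without P14 replicate 2 (edgeR adjusted p = 0.0572) or 3 (-0.45, edgeR adjusted p = 0.108) and with GC correction (-0.37, edgeR adjusted p = 0.227). With the marker score as a term it was -1.50 (edgeR adjusted p = 0.00484). The summed Schwann cell markers overlapped between P1 and P14, and all P56 sums stood below all P1 sums, whereas Erbb3 was higher at P56.

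Igf1r, which mediates growth signals of IGF1 and IGF2, fell at each step. It lies at chr7:67952827-68233668 on the plus strand, and no other annotated gene overlaps it. Its level was 864, 886 and 802 CPM at P1, 574, 539 and 507 CPM at P14 and 325, 348 and 318 CPM at P56, with no overlap between ages. The log2 change was -0.66 ± 0.07 for P14 against P1 (SE, edgeR adjusted p = 3.94e-05) and -0.71 ± 0.07 for P56 against P14 (edgeR adjusted p = 3.31e-05). P56 was 2.57-fold lower than P1 (log2 -1.36 ± 0.07, edgeR adjusted p = 1.56e-07). The difference between the steps was -0.05 ± 0.12, with a 95% interval of -0.34 to 0.24 and an edgeR adjusted p of 0.743. The 3 calls for the age pairs held in all 15 alternatives.

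Insr, the insulin receptor, was steadier than the other receptors in these libraries. It lies at chr8:3122061-3279617 on the minus strand. The P1 libraries held 695, 670 and 614 CPM, the P14 libraries 670, 754 and 777 CPM and the P56 libraries 730, 754 and 799 CPM. P14 overlapped P1 and P56, and every P56 library stood above every P1 library. The change was 0.15 ± 0.08 log2 for P14 against P1 (SE, edgeR adjusted p = 0.115) and 0.05 ± 0.08 for P56 against P14 (edgeR adjusted p = 0.581). For P56 against P1 it was 0.21 ± 0.08, 1.15-fold higher, with a 95% interval of 0.02 to 0.39 (edgeR adjusted p = 0.0387). That call was lost without P1 replicate 2 or 3, without P14 replicate 2 or without P56 replicate 2 or 3, with edgeR adjusted p from 0.0522 to 0.141. It was also lost with the marker score as a term (0.11, edgeR adjusted p = 0.157). Without P14 replicate 1 the P14 change against P1 passed (0.21, edgeR adjusted p = 0.0250). With the marker score as a term the P14 change against P1 also passed and was larger (0.35, edgeR adjusted p = 0.00853). The F test over the 3 ages missed the threshold for Insr alone (edgeR adjusted p = 0.0721).

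Igf2r, which takes IGF2 from the cell surface to lysosomes, showed the smallest errors. It lies at chr17:12682406-12769664 on the minus strand. The level was 384, 372 and 372 CPM at P1, 164, 167 and 174 CPM at P14 and 103, 108 and 102 CPM at P56, with wide gaps between ages. Igf2r fell by 1.16 ± 0.05 log2 at P14 against P1 (SE, edgeR adjusted p = 1.76e-07) and by 0.69 ± 0.05 at P56 against P14 (edgeR adjusted p = 6.18e-06). P56 was 3.61-fold lower than P1 (log2 -1.85 ± 0.05, edgeR adjusted p = 4.49e-09). The later change minus the earlier was 0.47 ± 0.09, the earlier fall being the larger (edgeR adjusted p = 0.00181). This difference was lost with the marker score as a term (0.37, edgeR adjusted p = 0.155) and was 0.79 with GC correction (edgeR adjusted p = 0.000494). Erbb2, Igf1r and Igf2r were thus the 3 receptors that fell at both steps, a pattern found in 7.16% of all genes, and none rose at both, as 7.74% of all genes did.

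Igf2r is imprinted in the mouse, and the antisense transcript Airn, which silences its paternal copy, starts within it. Airn shares 28354 bases with Igf2r, none of them in annotated exons of both. Airn stood at 1370, 1342 and 1105 CPM at P1, 872, 910 and 924 CPM at P14 and 706, 836 and 960 CPM at P56. All P14 and P56 libraries were below the P1 libraries, and P14 and P56 overlapped. The log2 change of Airn was -0.50 ± 0.12 for P14 against P1 (SE, edgeR adjusted p = 0.00494), -0.11 ± 0.12 for P56 against P14 (edgeR adjusted p = 0.431) and -0.61 ± 0.12 for P56 against P1 (edgeR adjusted p = 0.00117). The first of these was lost with the marker score as a term (-0.18, edgeR adjusted p = 0.294). Whether reads were counted by strand is not given, so reads of Airn and Igf2r in the shared stretch cannot be told apart.

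Fgfr1, the FGF receptor, was highest at P14. It lies at chr8:25513654-25575718 on the plus strand, and an annotated antisense gene, not among the genes measured, shares 164 of its exon bases. The P1 libraries held 21.2, 19.5 and 21.7 CPM, the P14 libraries 35.6, 29.2 and 22.4 CPM and the P56 libraries 17.5, 16.9 and 14.5 CPM. The P14 libraries spread widely but stayed above the others, and P56 stayed below P1. Fgfr1 rose by 0.48 ± 0.15 log2 at P14 against P1 (SE, edgeR adjusted p = 0.0193) and fell by 0.83 ± 0.15 at P56 against P14 (edgeR adjusted p = 0.00117). The P56 to P1 change of -0.35 ± 0.15 missed the threshold (edgeR adjusted p = 0.0653) and passed without P14 replicate 1 (edgeR adjusted p = 0.0169) or 3 (edgeR adjusted p = 0.0135). A rise followed by a fall was found in 10.9% of all genes.

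The Fgfr1 level followed the marker score within P14, where the score was 3.58, 3.08 and 2.38 in the same 3 libraries. Igf1r and Erbb4 ran in that order too, and Erbb2, Erbb3, Insr and Igf2r in the opposite order. With the score in the fit, the Fgfr1 change at P14 against P1 was -0.07 (edgeR adjusted p = 0.668). That at P56 against P14 was -0.03 (edgeR adjusted p = 0.917). The change at P56 against P14 was -0.42 with GC correction (edgeR adjusted p = 0.0287). The rise at P14 was also lost with GC correction (0.22, edgeR adjusted p = 0.207), without P1 replicate 2 (0.44, edgeR adjusted p = 0.0684) and without P14 replicate 2 (0.48, edgeR adjusted p = 0.0520), and it was 0.31 without P14 replicate 1 (edgeR adjusted p = 0.0482). The later change minus the earlier, -1.32 ± 0.25 (edgeR adjusted p = 0.00212), was 0.04 with the score in the fit and -0.64 with GC correction (edgeR adjusted p = 0.0523).

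**Figure D2:**
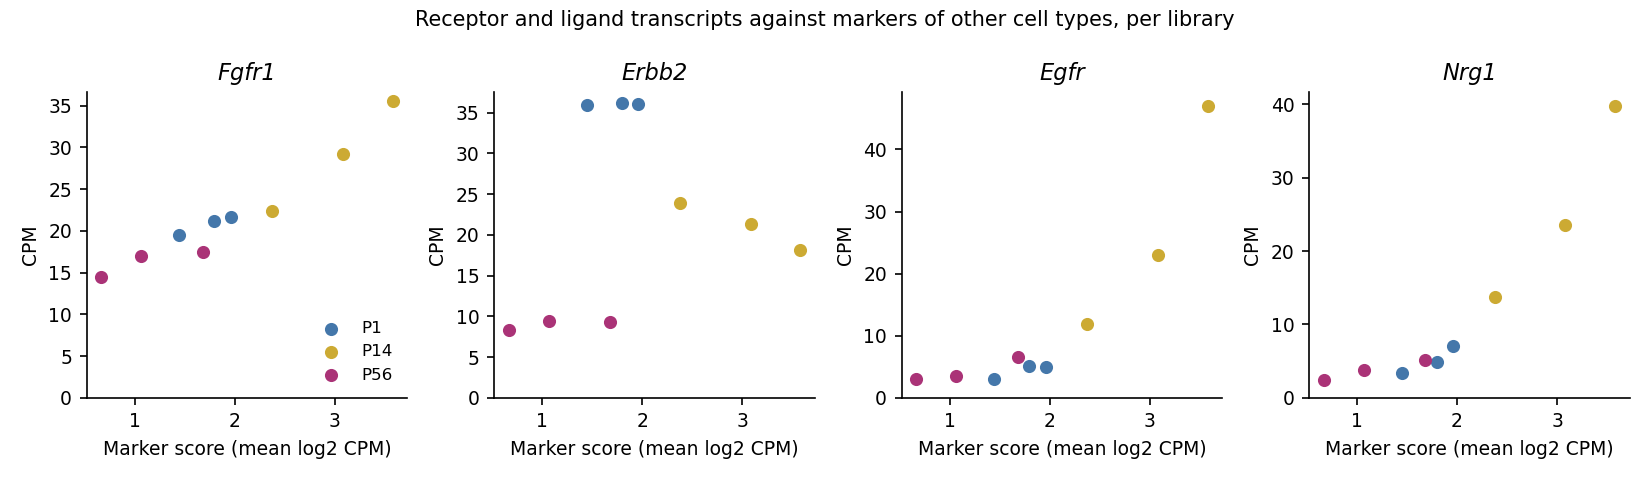
Level of Fgfr1, Erbb2, Egfr and the ligand Nrg1 in CPM (vertical axes, starting at 0) plotted against the marker score of other cell types, with 1 point per library coloured by age. The P14 libraries have the highest scores, 2.38 to 3.58, and Fgfr1 ranges from 22.4 to 35.6 CPM in the same order as the score, while Erbb2 ranges from 18.1 to 23.9 CPM in the opposite order.

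**Figure D3:**
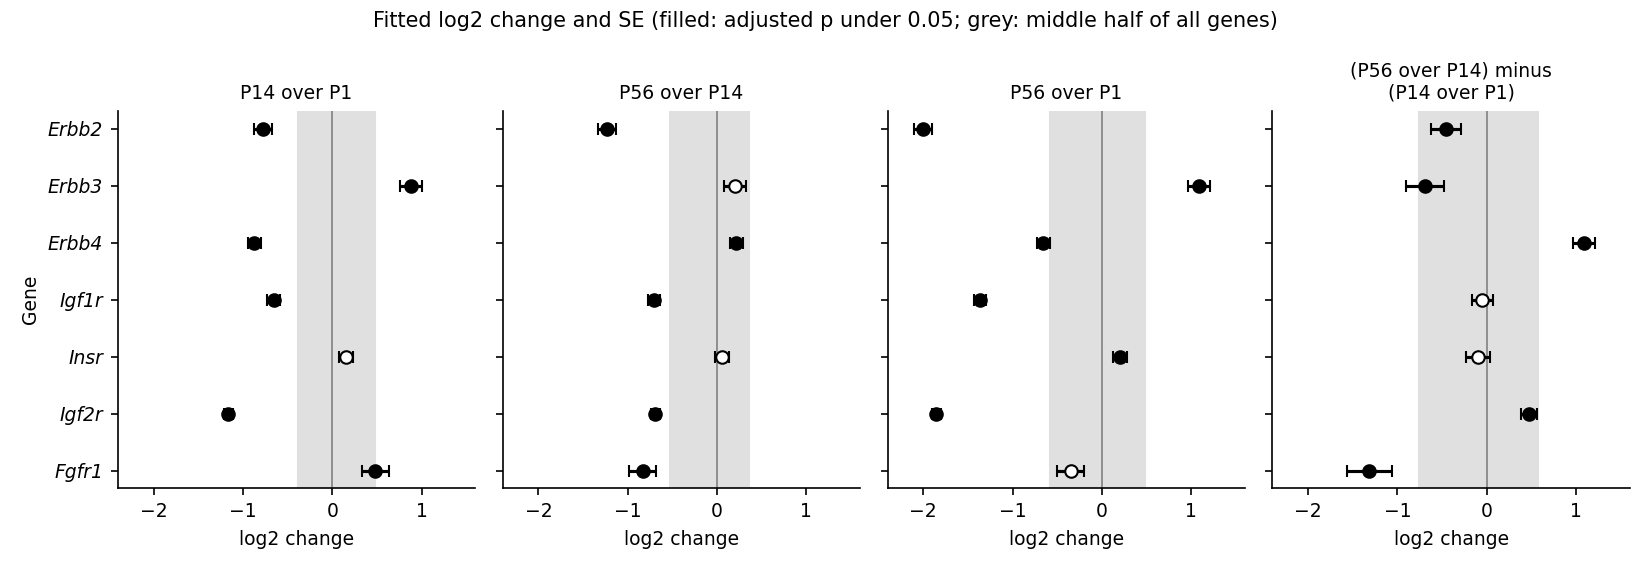
Log2 change of each receptor (horizontal axes) for P14 against P1, P56 against P14 and P56 against P1, and the later change minus the earlier, with bars for the SE of edgeR's fit. Filled points have an adjusted p under 0.05, and the grey band spans the 25th to 75th percentile of all genes. Erbb2, Igf1r and Igf2r lie below 0 in the 3 age pairs, Erbb3 lies above 0 in each, and the Insr values lie between 0.05 and 0.21.

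Ratios of receptor counts within a library need no scaling between libraries. The ratio of Insr to Igf1r had a log2 mean of -0.37 ± 0.05 at P1, 0.44 ± 0.20 at P14 and 1.20 ± 0.11 at P56 (SD, n = 3 each), with no overlap between ages. Igf1r counts thus exceeded Insr counts at P1, and Insr counts exceeded Igf1r counts at P14 and P56. The ratio was 2.97-fold higher at P56 than at P1. Among the 3 ages, exact permutation of the F value over 1680 ways to assign the libraries gave p = 0.00357, the smallest p it can give. The Benjamini-Hochberg value over the 5 ratios was 0.00893.

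Relative to Erbb4, its partner Erbb2 had a log2 ratio of -6.07 ± 0.04 at P1, -5.98 ± 0.22 at P14 and -7.42 ± 0.16 at P56 (SD, n = 3 each). P14 overlapped P1, and P56 was below both (exact permutation p = 0.0214, adjusted 0.0313). Erbb3 relative to Erbb4 was -8.84 ± 0.15 at P1, -7.09 ± 0.24 at P14 and -7.09 ± 0.17 at P56, with P1 below both later ages (exact permutation p = 0.0357, adjusted 0.0357). The Fgfr1 to Erbb4 ratio was -6.87 ± 0.10 at P1, -5.54 ± 0.32 at P14 and -6.56 ± 0.18 at P56, without overlap (exact permutation p = 0.00357, adjusted 0.00893). Igf2r relative to Igf1r was -1.18 ± 0.07 at P1, -1.68 ± 0.13 at P14 and -1.67 ± 0.02 at P56, with both later ages below P1 (exact permutation p = 0.0250, adjusted 0.0313). Each of these p values is for the 3 ages together, and no pair of ages was tested alone. No ratio was recomputed with the marker score or with GC correction. Within P14 the Fgfr1 to Erbb4 ratio ran in the order of the score, with -5.25, -5.50 and -5.87 at scores of 3.58, 3.08 and 2.38. The other ratios ran in the opposite order within P14.

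**Figure D4:**
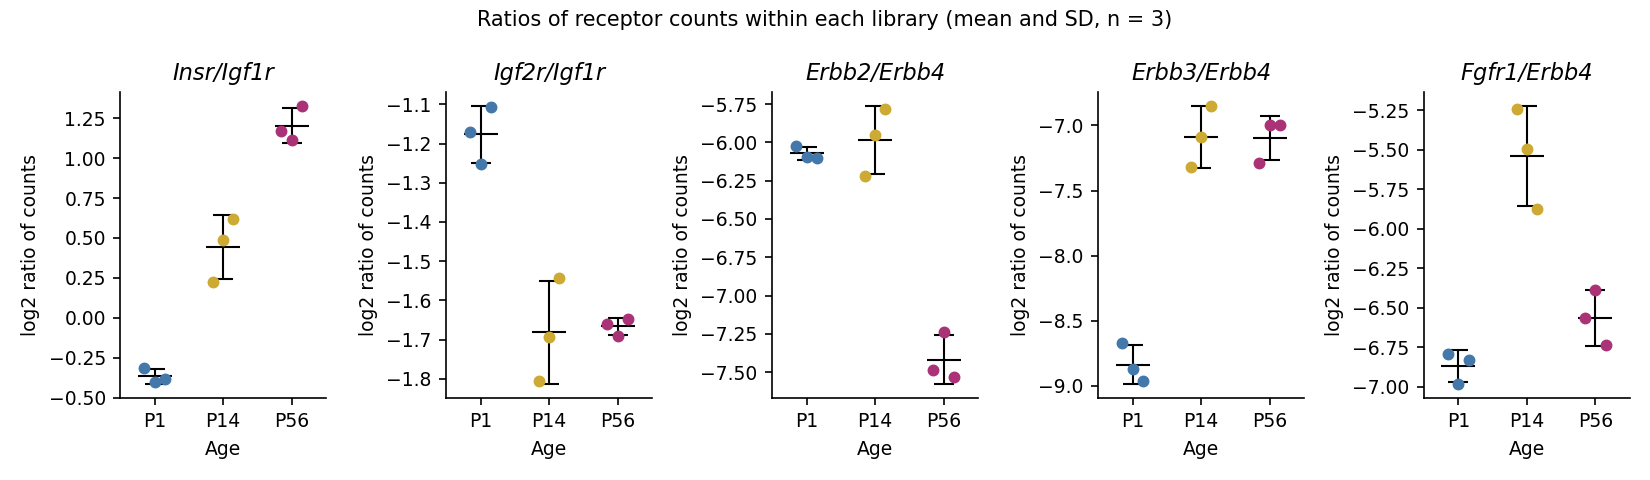
Log2 ratio of the counts of a pair of receptors within each library, for 5 pairs, by age, with the mean and SD of 3 libraries. Insr to Igf1r moves up at each age, from a mean of -0.37 at P1 through 0.44 at P14 to 1.20 at P56, and Erbb2 to Erbb4 is lower at P56 than at the other ages.

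Levels of different genes can be compared only per length, and the sources used here do not say whether exons or whole genes were counted. Per kilobase of annotated exon, the P1 order was Erbb4 at 196 CPM per kilobase, Igf1r at 50.7, Insr at 48.0, Igf2r at 40.4, Erbb2 at 6.92, Fgfr1 at 2.10 and Erbb3 at 0.884. Igf1r and Insr overlapped there. At P56 the order per kilobase of exon was Erbb4 at 125, Insr at 55.4, Igf1r at 19.7, Igf2r at 11.2, Erbb3 at 1.87, Erbb2 at 1.73 and Fgfr1 at 1.65, and the last 3 overlapped. At P14 Erbb4 stood at 107, Insr at 53.4, Igf1r at 32.1, Igf2r at 18.1, Erbb2 at 4.05, Fgfr1 at 2.94 and Erbb3 at 1.63, with Erbb2 and Fgfr1 overlapping. Per kilobase of gene span Erbb4 was no longer first. At P1 Igf2r stood at 4.31 CPM per kilobase of span, Insr at 4.19, Igf1r at 3.03 and Erbb4 at 2.26, and at P56 Insr led with 4.83 beside 1.43 for Erbb4. The change of a given receptor between ages does not depend on its length.

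The genes whose course over the 9 libraries was most like each receptor were sought among 7161 genes of at least 10 CPM by the root mean square difference of centred log2 CPM. For Erbb2 they were Cacna1a (0.0951), Tox3 (0.166) and Wdr72 (0.179), and for Erbb3 Dst (0.0544), Adarb1 (0.0709) and Dcaf11 (0.0841). For Erbb4 they were Gstcd (0.0532), Wls (0.0548) and Tab2 (0.0565). Igf1r was closest to Hnrnpab (0.0990), Tmem164 (0.102) and Extl3 (0.103), and Igf2r to Bves (0.0683), Sorcs2 (0.123) and Tln2 (0.126). Insr was closest to Vps13d (0.0317), Trub1 (0.0451) and Rdh13 (0.0461), and Fgfr1 to Tnfaip1 (0.0774), Sash1 (0.110) and Rnf220 (0.123). Among the receptors themselves, Erbb2 and Igf2r (0.238) and Igf1r and Igf2r (0.245) were closest, and Erbb2 and Erbb3 (1.26) farthest apart. These values describe shared age courses over the same libraries and carry no test.

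Of 6 other receptors of the same families, 4 were measured, and Insrr and Fgfr4 are not analysed here. Between P14 and P1, 2 rose and 2 fell, between P56 and P14 3 fell, and between P56 and P1 2 fell (median log2 change -0.30, against -0.03 over all genes). Beside this and the lists below, 55.9% of all genes were called for P14 against P1. The share was 56.0% for P56 against P14 and 62.6% for P56 against P1. Whether any list differs from these shares was not tested. Egfr, which binds EGF-like ligands, stood at 5.15, 3.09 and 4.90 CPM at P1, 47.0, 22.9 and 11.9 CPM at P14 and 6.61, 3.51 and 3.01 CPM at P56. Its P14 rise of 2.64 ± 0.48 log2 (SE, edgeR adjusted p = 0.00122) was 0.57 with the marker score as a term (edgeR adjusted p = 0.0396). The change at P56 against P14 of -2.64 ± 0.49 (edgeR adjusted p = 0.00130) became 0.24 with that term (edgeR adjusted p = 0.540). Fgfr3 rose by 2.73 ± 0.35 at P14 against P1 (edgeR adjusted p = 0.000134) and fell by 2.96 ± 0.36 at P56 against P14 (edgeR adjusted p = 0.000120). With the score as a term these changes were 1.55 (edgeR adjusted p = 0.00127) and -1.32 (edgeR adjusted p = 0.0269). Fgfr2, at 42.4 to 57.0 CPM over all libraries, was lower at P56 than at P1, with a log2 change of -0.37 ± 0.05 (edgeR adjusted p = 0.000178). Fgfrl1, a receptor without a kinase, was lower, with a log2 change of -0.92 ± 0.12 (edgeR adjusted p = 7.83e-05). Its fall at P56 against P14 was -0.31 ± 0.12 (edgeR adjusted p = 0.0459). That call was lost in 9 of 15 alternatives, and the change reversed its sign in 1.

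Of 11 ERBB ligands, 8 were measured, and Areg, Ereg and Epgn are not analysed here. Between P14 and P1, 3 rose and 4 fell, with a median log2 change of -0.18. Between P56 and P14, 3 rose and 3 fell (median 0.06), and between P56 and P1, 3 rose and 2 fell (median 0.11). Nrg1, the neuregulin of endothelial and endocardial cells, stood at 4.93, 3.32 and 7.08 CPM at P1, 39.8, 23.6 and 13.7 CPM at P14 and 5.19, 3.86 and 2.45 CPM at P56. It rose by 2.33 ± 0.41 at P14 against P1 (SE, edgeR adjusted p = 0.00103) and fell by 2.75 ± 0.43 at P56 against P14 (edgeR adjusted p = 0.000484), beside the course of the endothelial markers. With the marker score as a term these changes were 0.63 (edgeR adjusted p = 0.0197) and -0.31 (edgeR adjusted p = 0.402). Nrg4, a ligand of ERBB4, held 5.98, 6.22 and 5.37 CPM at P1, 7.77, 8.76 and 9.30 CPM at P14 and 27.8, 27.4 and 29.4 CPM at P56. It rose by 2.27 ± 0.10 at P56 against P1 (edgeR adjusted p = 4.74e-08).

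Egf was higher at P56 than at P1 by 1.09 ± 0.15 log2 (SE, edgeR adjusted p = 0.000117) after a lower level at P14. Tgfa, an EGFR ligand, was lower at P56, with a log2 change of -3.18 ± 0.26 (edgeR adjusted p = 3.00e-06) and Nrg2 was lower with one of -2.12 ± 0.27 (edgeR adjusted p = 8.22e-05). Hbegf was higher at P56 by 0.78 ± 0.16 (edgeR adjusted p = 0.00199). Btc fell at P14 by 0.88 ± 0.11 (edgeR adjusted p = 9.29e-05) and rose at P56 against P14 by 0.90 ± 0.11 (edgeR adjusted p = 9.54e-05). Nrg3 passed no comparison and stood at 0.234 to 0.469 CPM.

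Both measured IGF ligands were lower at each later age, and Ins1 and Ins2 are not analysed here. Igf1 stood at 64.9, 56.1 and 63.5 CPM at P1, 15.4, 11.6 and 7.15 CPM at P14 and 4.60, 1.97 and 1.49 CPM at P56. It fell by 2.43 ± 0.35 log2 at P14 against P1 (SE, edgeR adjusted p = 0.000298) and by 2.08 ± 0.38 at P56 against P14 (edgeR adjusted p = 0.00128). With the marker score as a term the earlier step was -3.83 (edgeR adjusted p = 9.57e-08) and the later step -0.18 (edgeR adjusted p = 0.699). Igf2, which binds IGF1R and is cleared by IGF2R, stood at 72.6, 60.3 and 80.2 CPM at P1, 50.5, 31.7 and 21.2 CPM at P14 and 1.11, 0.689 and 0.245 CPM at P56. Its change of -1.04 ± 0.32 at P14 against P1 (edgeR adjusted p = 0.0179) was lost without P1 replicate 1 or 3 or P14 replicate 2, and with DESeq2 (DESeq2 adjusted p = 0.0758), and was -2.48 with the marker score as a term (edgeR adjusted p = 4.65e-07). At P56 against P1 the log2 change was -4.52 ± 0.40 for Igf1 (edgeR adjusted p = 5.67e-06) and -6.70 ± 0.45 for Igf2 (edgeR adjusted p = 8.43e-07). Fibroblasts and endothelial cells also express these ligands, and the part of such cells was not tested beyond the score.

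Of 11 FGF ligands and co-receptors, 7 were measured, all of them ligands. Fgf21, Fgf23 and the co-receptors Klb and Kl are not analysed here. Between P14 and P1, 3 rose and 2 fell, and between P56 and P14, 2 rose and 1 fell. Between P56 and P1, 4 rose and 2 fell (median log2 change 1.19). Fgf1 had the most counts, at 204, 220 and 193 CPM at P1, 351, 459 and 493 CPM at P14 and 463, 495 and 494 CPM at P56. It rose by 1.23 ± 0.11 log2 at P56 against P1 (SE, edgeR adjusted p = 7.77e-06). Fgf16 rose by 1.15 ± 0.10 over the same span (edgeR adjusted p = 6.60e-06), while Fgf9 fell by 0.86 ± 0.06 (edgeR adjusted p = 1.35e-06) and Fgf18 fell by 1.54 ± 0.16 (edgeR adjusted p = 1.59e-05). Fgf2 and Fgf7 were higher at P56 by 1.29 ± 0.26 (edgeR adjusted p = 0.00181) and 1.66 ± 0.43 (edgeR adjusted p = 0.00702). Fgf10, at most 1.94 CPM, rose at P14 by 1.74 ± 0.52 (edgeR adjusted p = 0.0167), which was -0.24 with the marker score as a term. That rise was lost without P1 replicate 3 (1.63) or P14 replicate 1 (1.03).

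Of 6 measured IGF binding proteins, 4 rose at P14 against P1, and 5 fell and 1 rose at P56 against P14. Between P56 and P1, 2 rose and 1 fell (median log2 change -0.13). Igfbp7 stood at 8.41, 6.54 and 7.57 CPM at P1, 74.6, 43.8 and 24.4 CPM at P14 and 10.4, 6.04 and 4.23 CPM at P56. It rose by 2.66 ± 0.41 log2 at P14 (SE, edgeR adjusted p = 0.000438), which was 0.93 with the score in the fit (edgeR adjusted p = 0.000620), and its change at P56 against P14 was then -0.41 (edgeR adjusted p = 0.183). Igfbp3 rose by 1.80 ± 0.46 at P14 (edgeR adjusted p = 0.00817), a value of 0.05 with the score in the fit and 1.10 without P14 replicate 1. Igfbp5 rose by 0.91 ± 0.31 (edgeR adjusted p = 0.0284), which was lost without P1 replicate 1 or 2 or P14 replicate 1 (0.59) or 2 and with the score in the fit (0.31, edgeR adjusted p = 0.559). Igfbp4 was lower at P56 than at P1, with a log2 change of -1.71 ± 0.42 (edgeR adjusted p = 0.00570), or -1.01 with the score in the fit. Igfals rose by 1.93 ± 0.37 over that span from under 0.2 CPM (edgeR adjusted p = 0.00128). Igfbp6 had 97 counts in all at P14 and 26 at P56, against 5 at P1.

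**Figure D5:**
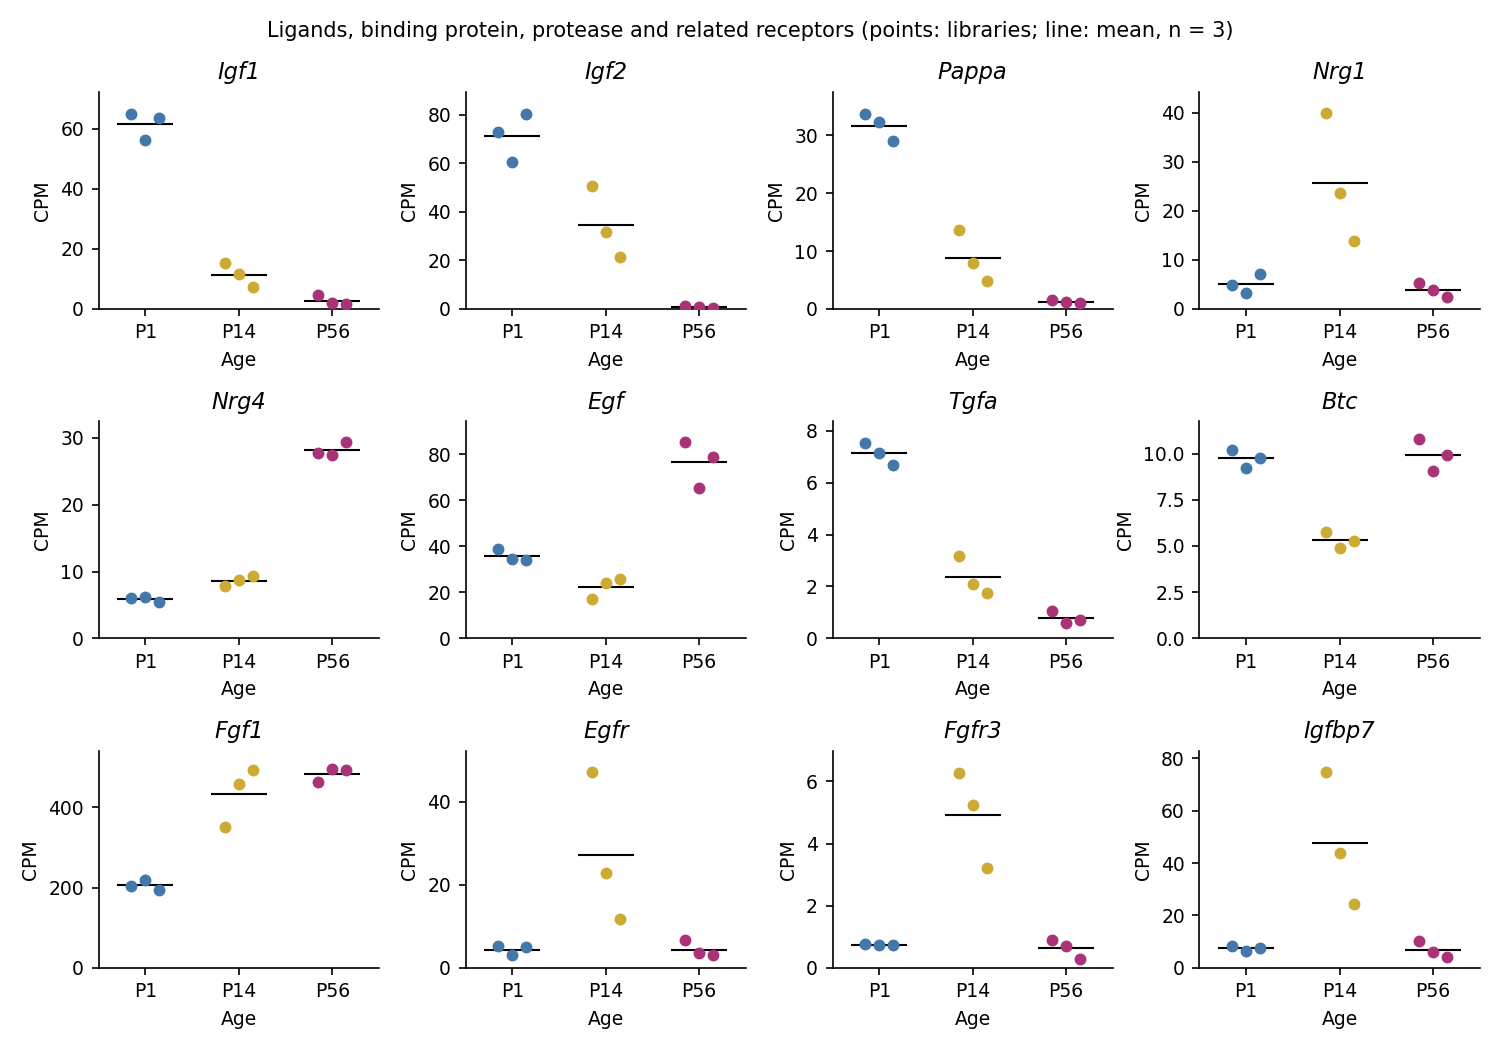
Level in CPM (vertical axes, starting at 0) of ligands, the protease Pappa, the binding protein Igfbp7 and the receptors Egfr and Fgfr3, with 1 point per library and a line at the mean of 3 libraries. Igf1 and Igf2 are lowest at P56, Nrg1, Egfr, Fgfr3 and Igfbp7 peak at P14, and Nrg4 reaches 27.4 to 29.4 CPM at P56.

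Of 21 measured adaptors and docking proteins, 9 rose and 3 fell at P14 against P1, 5 rose and 11 fell at P56 against P14, and 6 rose and 4 fell at P56 against P1 (median log2 change 0.11). Grb10, an inhibitory adaptor of INSR and IGF1R that is imprinted in the mouse, fell to 412, 389 and 413 CPM at P56, against 1845, 1738 and 1748 CPM at P1, a log2 change of -2.13 ± 0.06 (SE, edgeR adjusted p = 4.06e-09). Its relative Grb14, which also inhibits INSR, rose by 1.09 ± 0.08 (edgeR adjusted p = 1.68e-06). Among the substrates of these receptors, Irs1 rose by 0.35 ± 0.08 (edgeR adjusted p = 0.00235) and Irs2 fell by 1.29 ± 0.11 (edgeR adjusted p = 3.27e-06). Ptpn11, a phosphatase that RAS signalling needs, rose by 1.00 ± 0.16 (edgeR adjusted p = 0.000299). Crk fell by 0.32 ± 0.06 (edgeR adjusted p = 0.000682). The Gab1 change of 0.24 ± 0.09 (edgeR adjusted p = 0.0384) was lost without any of P1 replicates 1 and 3, P14 replicate 2 and P56 replicates 2 and 3, and with the marker score as a term (0.11, edgeR adjusted p = 0.167). Dok1 had 5 counts in all at P56, against 88 at P1.

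Of 25 genes of the PI3K, AKT and mTOR branch, 7 rose and 7 fell at P14 against P1, 5 rose and 7 fell at P56 against P14, and 5 rose and 7 fell at P56 against P1 (median log2 change -0.06). Pik3r1, the main regulatory subunit of PI3K, rose to 509, 556 and 575 CPM at P56, against 126, 121 and 115 CPM at P1 (log2 2.18 ± 0.11, SE, edgeR adjusted p = 1.48e-07). Pik3cd rose by 2.68 ± 0.27 (edgeR adjusted p = 1.53e-05), Foxo3 by 1.41 ± 0.13 (edgeR adjusted p = 9.65e-06) and Foxo1 by 0.95 ± 0.07 (edgeR adjusted p = 1.21e-06). Among the genes that fell were Akt1 (-1.35 ± 0.09, edgeR adjusted p = 8.40e-07), Pik3r3 (-0.93 ± 0.07, edgeR adjusted p = 2.30e-06) and Pik3r2 (-0.64 ± 0.10, edgeR adjusted p = 0.000291).

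Of 16 genes of the RAS and MAPK branch, 1 rose and 4 fell at P14 against P1, 2 rose and 7 fell at P56 against P14, and 1 rose and 6 fell at P56 against P1 (median log2 change -0.14). The scaffold Ksr1 fell by 2.76 ± 0.25 log2 (SE, edgeR adjusted p = 7.39e-06) and the kinase Mapk3 fell by 1.32 ± 0.18 (edgeR adjusted p = 0.000146) at P56 against P1. The ERK phosphatases Dusp4 (-1.72 ± 0.37, edgeR adjusted p = 0.00226) and Dusp6 (-1.31 ± 0.39, edgeR adjusted p = 0.0147) fell too. The call of Dusp6 was lost without P56 replicate 2 or 3, and its change was -0.76 with the marker score as a term (edgeR adjusted p = 0.00495). Map2k1 rose by 0.17 ± 0.06 (edgeR adjusted p = 0.0247), a call lost without P1 replicate 1 or 3 or P56 replicate 2 and with the marker score as a term (0.15, edgeR adjusted p = 0.0680). It was 0.27 with GC correction (edgeR adjusted p = 0.00552).

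Of 20 measured receptor brakes, 8 rose and 4 fell at P14 against P1, 2 rose and 10 fell at P56 against P14, and 6 rose and 6 fell at P56 against P1 (median log2 change -0.03). Lrig1, which lowers ERBB receptor levels, rose by 0.84 ± 0.10 log2 (SE, edgeR adjusted p = 3.47e-05), Enpp1, an inhibitor of INSR, by 1.48 ± 0.12 (edgeR adjusted p = 2.30e-06) and Spred2 by 0.40 ± 0.09 (edgeR adjusted p = 0.00291). Ptprf, a phosphatase that acts on INSR, fell by 2.29 ± 0.13 (edgeR adjusted p = 3.50e-07), Socs2 fell by 0.71 ± 0.10 (edgeR adjusted p = 0.000154) and Spred3 fell by 1.25 ± 0.36 (edgeR adjusted p = 0.0118). Inppl1 rose by 0.37 ± 0.11 (edgeR adjusted p = 0.0156), a call lost without P1 replicate 3 or P56 replicate 2 or 3, and the change was 0.18 with the marker score as a term (edgeR adjusted p = 0.0339). The Spry1 change of -1.61 ± 0.61 (edgeR adjusted p = 0.0407) was lost without P1 replicate 1 or 3, P14 replicate 2 or P56 replicate 2 or 3 and with GC correction (-1.45, edgeR adjusted p = 0.0537). With the marker score as a term it was -0.76 (edgeR adjusted p = 0.0497).

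Of 11 measured proteases of ligands and receptors, 4 rose and 4 fell at P14 against P1, 1 rose and 7 fell at P56 against P14, and 1 rose and 7 fell at P56 against P1 (median log2 change -0.49). Pappa, which cleaves IGF binding proteins, fell to 1.56, 1.22 and 1.02 CPM at P56, against 33.8, 32.4 and 29.0 CPM at P1 (log2 -4.64 ± 0.35, SE, edgeR adjusted p = 2.02e-06). Pcsk5 fell by 1.98 ± 0.17 (edgeR adjusted p = 5.20e-06), Adam12 fell by 1.95 ± 0.31 (edgeR adjusted p = 0.000341) and Adam19 fell by 1.43 ± 0.09 (edgeR adjusted p = 6.48e-07). Adam17, which sheds ERBB ligands and ERBB4, rose by 0.94 ± 0.06 (edgeR adjusted p = 3.90e-07).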

How the data were processed

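RNA of 9 cardiomyocyte libraries was analysed from a table of integer counts per gene that the authors deposited. The tools named in the submitters' processing notes are featureCounts 1.4.2, STAR 2.4.0g1 and bcl2fastq 2.17.1.14, with build GRCm38. The sources used here do not give the counting unit (exons or whole genes) or the strand setting. The mean count of every deposited row was at least 10, and 15763 of 15824 identifiers were found in GENCODE vM21.

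Counts were fitted with edgeR 4.0.16 in R 4.3.3 (TMM scaling, glmQLFit, glmQLFTest, age as the only term, all 9 libraries in 1 fit). The filter filterByExpr removed 7 genes, and p-values were adjusted by Benjamini-Hochberg over 15817 genes at 0.05. The common dispersion was 0.0192, a biological coefficient of variation of 13.9%. Levels are CPM on TMM-scaled library sizes, computed from the deposited counts. The members and gene lists were chosen with earlier results of these data known. Genes of the lists were named where their change was among the 4 largest called per direction, and Airn and Mien1 because they overlap a receptor gene; a gene that this rule names is not reported here.

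The series' design names the 3 libraries per age as biological replicates, and pairs of the same age differed by more than counting error (chi-square per degree of freedom 5.48 to 101). Alternatives for the gene fits were RLE scaling, no low-count filter, DESeq2 1.42.0, a replicate block, the marker score as a term, GC offsets, and leaving out each library. For the ratios they were a replicate block, a pseudocount of 10 and leaving out each library. The edgeR fit was also run on simulated counts in which a small set of genes was changed at P14 only. Far fewer genes changed there than were called here, so that run cannot test the scaling under so wide a change. Promoter sequences are from RefSeq on GRCm38.p6.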

Additional observations from a re-analysis of the deposited data

How the results depend on the processing

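Of 1845 recomputed log2 changes of named genes, 1717 kept their direction and side of the threshold, 109 lost the call, 7 gained one and 12 changed sign. The age-pair calls of Erbb2, Igf1r and Igf2r, and those of Erbb3 and Erbb4 against P1, held in all 15 alternatives. With the marker score as a term, 3 receptors were called for P56 against P14, 2 for the difference between steps, beside 5043 and 5359 of all genes. The sign changes under it were Fgfr1 at P14 against P1 (-0.073), Erbb3 (-0.29), Insr (-0.23) and Egfr (0.24) at P56 against P14, Fgf10 at P14 against P1 (-0.24), and the step differences of Igf1r (0.13) and Fgfr1 (0.043). With GC offsets, 2 receptors and 6844 of all genes were called for the difference between steps, and the sign changed for the step differences of Erbb2 (0.36) and Igf1r (0.13) and for Fgfrl1 at P56 against P14 (0.19). Of the genes called for the difference between steps, 60.7% were then higher, beside 48.1% without offsets, and the median of all genes was 0.19. Without P14 replicate 1, Insr at P56 against P14 was -0.0090 and the step difference of Igf1r was 0.041. Over the libraries left out in turn, that Insr change ran to 0.096 and the step difference of Igf1r down to -0.14. The causes of these changes were not tested.

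Leaving out each library in turn, the number of receptors called ranged from 5 to 7 for P14 against P1, 4 to 5 for P56 against P14, 5 to 7 for P56 against P1, 3 to 5 for the difference between steps and 6 to 7 among the ages. The difference between steps had 3 called receptors without P14 replicate 2 or 3, beside 5 with all libraries. Called genes ranged from 7533 to 9239, 7693 to 8986, 8752 to 10556, 6282 to 8182 and 11363 to 12711 in the same order of comparisons. The P56 minus P1 differences in log2 ratio ranged from -1.44 to -1.29 for Erbb2/Erbb4, 1.68 to 1.84 for Erbb3/Erbb4, 1.51 to 1.62 for Insr/Igf1r, -0.53 to -0.45 for Igf2r/Igf1r and 0.22 to 0.39 for Fgfr1/Erbb4.

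Libraries with the same replicate number deviated together in some pairs only (correlations -0.22 to 0.49, 3 of 9 over 0.1, with 0.49 for number 1 and 0.36 for number 3 between P14 and P56), so the numbers are not taken as pairs. With a replicate block, the Insr change at P56 against P1 (0.20) and the Erbb2 step difference (-0.45) lost their calls and Fgfr1 at P56 against P1 (-0.36) gained one. Permuting within replicate numbers leaves 216 assignments and a smallest p of 0.0278, and no ratio passed after adjustment under this block. The adjusted p values from the exact permutations were 0.104 for Erbb2/Erbb4 (-1.35), 0.111 for Erbb3/Erbb4 (1.74), 0.0694 for Insr/Igf1r (1.57), 0.104 for Igf2r/Igf1r (-0.49) and 0.0694 for Fgfr1/Erbb4 (0.31). Depth limits genes near 0 counts, such as Igfbp6 at P1 and Dok1 at P56, more than the receptors, whose lowest library count was 275.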
